A study of Mus with 4 samples.

Results

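The canonical Wnt/β-catenin pathway was followed in nephron progenitor cells (NPCs) of the mouse kidney through a list of 47 genes that spans ligands, receptors, the destruction complex, nuclear factors and feedback genes. The members were taken from that list by name, and a probe was assigned to a gene through the transcript accession on the array. Of the 47 genes, 43 were matched, with 63 probes among the 41166 probes tested on the array and 16355 genes that could be named. *Bcl9*, *Fzd9*, *Lgr4* and *Znrf3* were not matched to a probe and are not analysed here. The sequences of the probes and transcripts were not used.

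Wnt proteins are lipid-modified ligands that bind a Frizzled receptor together with LRP5 or LRP6. In cells without ligand, a destruction complex built on AXIN and APC lets the kinases CK1 and GSK3 phosphorylate β-catenin, which marks it for degradation. Ligand binding recruits Dishevelled and AXIN to the membrane, β-catenin accumulates, enters the nucleus and works with TCF/LEF factors on target genes. In the developing kidney, Wnt9b from the ureteric bud (UB) acts on the cap mesenchyme (CM), and β-catenin activity takes part both in keeping NPCs and in starting their conversion to epithelium.

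The cells were Six2 EGFP+ cap mesenchyme sorted by FACS from kidneys on embryonic day (E) 15.5. The *Mut* animals carried the *Six2* CreEGFP transgene and a floxed prorenin receptor gene on both alleles (*PRR* flox/flox), and the *WT* animals carried the same transgene with *PRR*+/+, so both groups expressed Cre and GFP. The transgene drives Cre in nephron progenitors and their epithelial descendants, the sort selected for the reporter and not for recombination, and each sample was a pool of several kidneys. Arrays 1 to 3 each held a *Mut* pool in the green dye (Cy3) and a *WT* pool in the red dye (Cy5), whereas both channels of array 4 carried *WT* RNA (Cy5 from pool 1, Cy3 from pool 2).

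Values are log2 *Mut*/*WT* ratios, and a level is a normalized log2 signal of a single dye channel, which can be compared between samples for a probe but not between probes. A gene was represented by its brightest probe. A call required a Benjamini-Hochberg adjusted *P* under 0.05 over all 41166 probes in limma and a difference of over 1.5-fold, and "by adjusted *P* alone" means that the fold was not required. The dyes were never swapped on arrays 1 to 3, so genotype and dye cannot be told apart there. Which way a ratio points was taken from the dyes that the labels name. For some of the genes that the study lists it is opposite to the direction given there (*Axin1*, the target genes *Lhx1*, *Ccnd1*, *Fgf8* and *Jag1*, and the stromal marker *Pdgfrb*). For *Lhx1*, *Fgf8* and *Jag1* the study also reports lower mRNA in *Mut* by qRT-PCR of the sorted cells. It reports *Lef1* lower by array and by qRT-PCR, where the mean ratio here was -0.02.

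The targeted gene did not separate the signals of the groups. *Atp6ap2*, which encodes PRR, had ratios of -0.08, -0.19 and -0.25 on arrays 1 to 3 (mean -0.17, 1.13-fold, adjusted *P* = 0.0353), and -0.19 on the array of 2 *WT* pools. The *WT* and *Mut* signals overlapped, and the *Mut* mean lay 0.11 above *WT* pool 2 in the same dye. Whether the probe lies in the deleted part of the gene was not examined, and the genotype is taken from the labels here. The share of probes well above background was 45.1% to 49.5% in the *Mut* channels and 54.1% to 58.35% in the *WT* channels of arrays 1 to 3. On array 4, with *WT* RNA in both dyes, it was 51.1% in Cy3 and 57.4% in Cy5. The Cy3 share was the lower there too, but it lay above that of every *Mut* channel. The cause was not tested. Array 4 stood apart. *WT* pool 1, labelled with Cy5 on both arrays 1 and 4, differed by over 1.5-fold between them at 398 probes. None of the 63 Wnt pathway probes was among these, but 4 of 28 target genes described at the end were. For 17 of the 43 pathway genes the signal of *WT* pool 1 on array 4 lay nearer to the *Mut* mean than to the *WT* mean, as it did for 39.6% of all named genes. Whether array 4 holds the pools its label names was not tested.

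The sorted cells carried the markers of their label. Of 12 nephron progenitor markers, 11 were well above background in both channels of arrays 1 to 3, *Six2* and *Cited1* among them. Their mean level was 9.92 to 9.98 in *WT* and 9.79 to 9.86 in *Mut*. By adjusted *P* alone 6 markers were lower and 2 higher (18.6% and 14.4% of all named genes), and none was past 1.5-fold. The mean level of 13 stromal markers was 8.96 to 8.98 in *WT* and 9.10 to 9.17 in *Mut*, and 9.08 and 9.14 in *WT* pools 1 and 2 of array 4. Of these markers 8 were higher and 2 lower by adjusted *P* alone (14.4% and 18.6% of all named genes). The mean level of 10 erythroid markers was 6.72 to 6.86 in *WT* and 7.03 to 7.06 in *Mut*, and that of 7 macrophage markers 6.89 to 6.94 in *WT* and 6.79 to 6.83 in *Mut*. By adjusted *P* alone 4 erythroid markers were higher and none lower, and 3 macrophage markers were lower and none higher. On array 4 the macrophage markers stood at 6.75 and 6.74. The erythroid markers there stood at 7.06 in *WT* pool 1 and 7.08 in *WT* pool 2, as high as in *Mut*. The mean level of 10 UB markers was 7.22 to 7.25 in both groups. That of 9 endothelial markers was 6.91 to 6.97 in *WT* and 6.95 to 6.98 in *Mut*, with 2 higher and none lower by adjusted *P* alone. Whether a difference reflects fewer cells of a type or less RNA per cell cannot be told apart in such pools, and the part of other cells in the Wnt pathway values was not tested.

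On arrays 1 to 3, after loess, 2 genes of the pathway were called lower in *Mut* and none higher. These were the scaffold gene *Axin1* and *Bcl9l*, which encodes a nuclear partner of β-catenin, while β-catenin itself (*Ctnnb1*) and *Dvl1* passed the call only at their dimmer probe. Neither *Axin1* nor *Bcl9l* was called with a dye term taken from array 4 or with the deposited log ratios. Nor was either called with a background offset of 0, median centring or the methods' test. Those settings called 0 of all 41166 probes, so the loss of a call there says nothing about these genes in particular. *Bcl9l* in *Mut* differed by -0.05 from *WT* pool 2 in the same dye. The background was 1.58% of all named genes called lower and 0.44% called higher. By adjusted *P* alone, with loess, 14 of the 43 genes were lower and 5 higher, where 18.6% of all named genes were lower and 14.4% higher. At an unadjusted *P* under 0.05 the counts were 18 lower and 6 higher, and over all named genes 23.9% and 20.1%. With the arrays centred on their median, without loess, no gene passed the adjusted *P*, and 17 were lower and 0 higher at an unadjusted *P* under 0.05, where 29.1% of all named genes were lower and 1.62% higher. All 3 arrays, after loess, gave a ratio below 0 for 21 genes and above 0 for 9, where 32.8% of all named genes were below 0 and 30.4% above. The median ratio was -0.07, and -0.12 over the 29 genes well above background in both channels of all 3 arrays, where the 9356 named genes measured as well had a median of -0.01. The *Mut* and *WT* signals did not overlap for 23 of 43 genes, against 40.9% of all named genes. *Mut* was the lower group for 16 of these 23 and the higher for 7, and over all named genes for 3743 and 2942 of 6685.

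**Figure D1:**
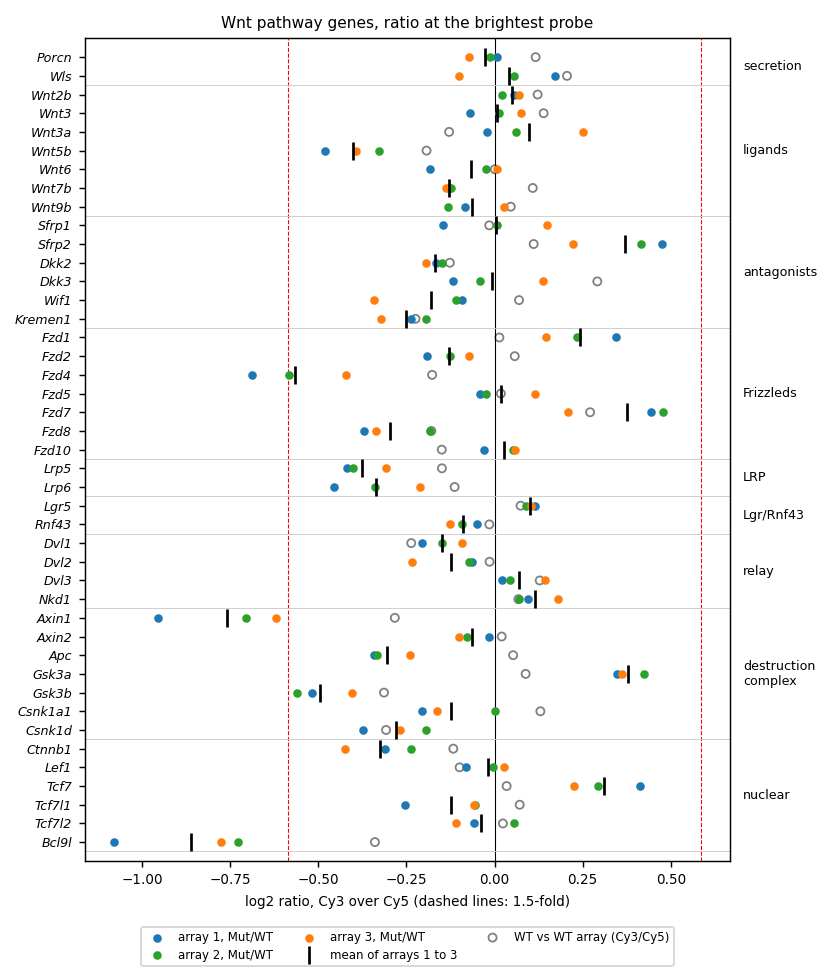
Log2 ratio of Cy3 over Cy5 (x axis) at the brightest probe of each of the 43 matched Wnt pathway genes, grouped by pathway level. Filled points are arrays 1 to 3 (*Mut*/*WT*), the bar is their mean, open circles are the array of 2 *WT* pools and dashed lines mark 1.5-fold. *Bcl9l* and *Axin1* lie farthest to the left, at means of -0.86 and -0.76, and no mean lies beyond 1.5-fold on the right.

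The genes that serve the secretion of Wnt ligands were measured well and showed no call. *Porcn*, the acyltransferase that attaches the lipid to Wnt proteins, had ratios of 0.01, -0.01 and -0.07 (mean -0.03, 95% interval -0.14 to 0.09, adjusted *P* = 0.744). *Wls*, which escorts Wnt proteins to the cell surface, had 0.17, 0.05 and -0.10 (mean 0.04, 95% interval -0.09 to 0.17). Both straddled 0, and after loess both intervals lay within 1.5-fold. Median centring gave -0.24 for *Porcn* and -0.45 for *Wls* (adjusted *P* = 0.368 and 0.265), and 1.5-fold lower is not excluded there for *Wls*.

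Among the 7 Wnt ligands, *Wnt5b* alone was well above background in both channels of all arrays. Its signal was 8.08, 7.92 and 8.10 in the *WT* pools and 7.60, 7.59 and 7.71 in the *Mut* pools, and 7.94 and 7.75 in the Cy5 and Cy3 channels of array 4. Every *Mut* pool lay below every *WT* pool, and the mean ratio was -0.40 ± 0.08 (SD, n = 3 arrays; adjusted *P* = 0.00023), which is 1.32-fold and below the fold of the call. The dimmer *Wnt5b* probe gave -0.16. *Wnt9b*, the ligand that the UB supplies to the CM, was dim. It was above background in 1 of 3 *WT* channels and in no *Mut* channel, with ratios of -0.08, -0.13 and 0.03. *Wnt2b*, *Wnt3* and *Wnt3a* were not well above background in any channel of arrays 1 to 3. *Wnt6* and *Wnt7b* were each above it in 1 *WT* channel and no *Mut* channel of arrays 1 to 3, and on array 4 both were above it in Cy5 and not in Cy3, so no difference can be read for them.

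None of the 6 genes for secreted antagonists and their co-receptor passed the call, and by adjusted *P* alone 3 were lower and 1 higher (18.6% and 14.4% of all named genes). *Sfrp2*, which encodes a soluble Frizzled-like protein that binds Wnts, had signals of 10.25, 10.27 and 10.29 in *WT* and 10.73, 10.68 and 10.51 in *Mut*. The groups did not overlap, and the 2 channels of array 4 lay at 10.39 and 10.50, between them. The mean ratio was 0.37 ± 0.13 (SD, n = 3; adjusted *P* = 0.000741), but -0.23 when the arrays were centred on their median in place of loess. Of the 3 lower genes only *Dkk2*, an inhibitor of LRP5 and LRP6, was measured in both channels throughout. Its ratios were -0.17, -0.15 and -0.19, close to the -0.13 of the *WT* array, the *Mut* mean lay 0.12 above *WT* pool 2 in the same dye, and the adjusted *P* of 0.0262 rose to between 0.0622 and 0.115 with any array left out. The ligand-binding inhibitor *Wif1* and the Dickkopf receptor *Kremen1* were above background in all 3 *WT* channels and in no *Mut* channel, so that on these arrays the *Mut* channel was at least 1.12-fold and 1.06-fold lower. Such a bound sets the mean *WT* signal against, on each array, the lowest signal well above background or the *Mut* signal itself where that was higher. Both genes were likewise above background in Cy5 and not in Cy3 on array 4. *Kremen1* read -0.22 on that array beside a mean of -0.25 in *Mut*, and the *Mut* mean of *Wif1* differed from *WT* pool 2 in the same dye by -0.01, so no difference between the genotypes is read from these bounds. *Sfrp1* and *Dkk3* had means of 0.00 and -0.01.

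Of the 7 Frizzled receptors matched, 2 were lower and 2 higher by adjusted *P* alone (18.6% and 14.4% of all named genes) and none passed the call. *Fzd4* came nearest. Its signal was 9.94, 9.94 and 10.00 in *WT* and 9.25, 9.36 and 9.58 in *Mut*, with 9.78 and 9.60 on array 4. The *Mut* pools were all lower, the pool on array 3 least so, and the *WT* pool 2 of array 4 lay just above the highest *Mut* pool. The mean ratio was -0.57 ± 0.13 (SD, n = 3; 1.48-fold, adjusted *P* = 5.13e-05). *Fzd7*, which is expressed widely in the embryo, had ratios of 0.44, 0.48 and 0.21 (mean 0.38, adjusted *P* = 0.000859), beside 0.27 on the array of 2 *WT* pools and -0.11 at its dimmer probe, and the mean turned to -0.12 under median centring. *Fzd1* had a mean of 0.24, and -0.32 under median centring. *Fzd8* was not above background in any *Mut* channel of arrays 1 to 3. Its bound by the same rule, 1.23-fold lower in the *Mut* channel, rests on the dim *Mut* signal itself. It equals the fitted fold and is no separate lower limit, and the *WT* array read -0.18. *Fzd10* was 0.03 at its brightest probe and 0.57 at the other, where the 3 ratios were 0.60, 0.52 and 0.59 (1.48-fold, adjusted *P* = 1.92e-05). The 2 *WT* pools on array 4 gave 7.53 and 7.74 at that second *Fzd10* probe, beside 7.11 to 7.24 in the *WT* channels and 7.71 to 7.77 in the *Mut* channels of arrays 1 to 3, so the *WT* RNA of array 4 lay near *Mut*.

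Both LRP co-receptors were lower by adjusted *P* alone (18.6% of all named genes). *Lrp5* was 7.82, 7.77 and 7.79 in *WT* and 7.40, 7.37 and 7.48 in *Mut* (mean ratio -0.38 ± 0.06, SD, n = 3; adjusted *P* = 0.000298). *Lrp6* was 8.11, 7.93 and 7.88 in *WT* and 7.65, 7.59 and 7.67 in *Mut* (mean ratio -0.34 ± 0.12, SD, n = 3; adjusted *P* = 0.00123). The groups did not overlap for either gene. The channels of array 4 gave 7.60 and 7.46 for *Lrp5* and 7.82 and 7.71 for *Lrp6*, below each *WT* signal of arrays 1 to 3. With *Mut* and *WT* pool 2 read in the same dye, the differences shrank to -0.04 for *Lrp5* and -0.07 for *Lrp6*.

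The R-spondin axis sets how many Frizzleds stay on the surface. *Lgr5*, an R-spondin receptor and itself a Wnt target in several tissues, had ratios of 0.11, 0.09 and 0.10 (95% interval -0.01 to 0.21, adjusted *P* = 0.156), beside 0.07 on the *WT* array. *Rnf43*, which encodes a ligase that removes Frizzleds, was not above background in *Mut*. Neither gene passed the test.

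The Dishevelled genes relay the signal from Frizzled to the destruction complex. The brightest *Dvl1* probe had ratios of -0.21, -0.15 and -0.09 (mean -0.15, adjusted *P* = 0.0517), no larger than the -0.24 of the *WT* array. The second *Dvl1* probe had signals of 7.95, 7.63 and 7.70 in *WT* and 6.90, 6.91 and 7.28 in *Mut*. The *Mut* signals were all lower, by -1.05, -0.71 and -0.42, with a mean of -0.73 ± 0.32 (SD, n = 3; adjusted *P* = 0.000149) that passed the call. The call was lost without array 1 (-0.57) and with the dye term (-0.46, adjusted *P* = 0.272). It was also lost with the deposited ratios (-1.57), an offset of 0 (-1.13), median centring (-1.05) and the methods' test (-0.73), at adjusted *P* from 0.0817 to 0.215. Of these, the offset of 0, median centring and the methods' test called no probe of the array. *Dvl2*, *Dvl3* and the Dishevelled antagonist *Nkd1* had means of -0.12, 0.07 and 0.12, and none passed the test. The ratios of *Dvl2* were -0.06, -0.07 and -0.24.

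The destruction complex had the lowest median among the levels with more than 2 genes, -0.28 over 7 genes, with 4 lower and 1 higher by adjusted *P* alone (18.6% and 14.4% of all named genes). The gene at that median, *Csnk1d*, read -0.31 on the *WT* array. *Axin1*, which encodes the scaffold that limits the complex, had signals of 8.05, 7.99 and 8.19 in the *WT* pools and 7.09, 7.28 and 7.57 in the *Mut* pools. All *Mut* pools lay below all *WT* pools, most so on array 1. The ratios were -0.96, -0.71 and -0.62, and the mean of -0.76 ± 0.17 (SD, n = 3; SE 0.07, 1.69-fold, adjusted *P* = 1.35e-05) passed the call. The call held whichever array was left out but not with the dye term (-0.48, adjusted *P* = 0.121) or the deposited ratios (-1.28, adjusted *P* = 0.0557). Nor did it hold with an offset of 0 (-1.06, adjusted *P* = 0.111), median centring (-1.14, adjusted *P* = 0.0817) or the methods' test (-0.76, adjusted *P* = 0.16). The offset of 0, median centring and the methods' test called no probe of the array. On array 4 *WT* pool 1 stood at 8.00, within the *WT* range, and *WT* pool 2, in the dye of *Mut*, at 7.72. The *Mut* mean was 0.40 log2 units below that pool (-0.40). *Axin2*, the homologue that β-catenin/TCF induces as feedback, was dim. It was above background in 1 *WT* channel and no *Mut* channel, with ratios of -0.01, -0.08 and -0.10 (95% interval -0.18 to 0.05).

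Neither GSK3 gene passed the call, and their ratios had opposite signs. *Gsk3b* was 8.54, 8.53 and 8.61 in *WT* and 8.03, 7.97 and 8.21 in *Mut* (mean ratio -0.49 ± 0.08, SD, n = 3; 1.41-fold, adjusted *P* = 6.21e-05), and -0.31 on the array of 2 *WT* pools. With the dye term it was -0.18 (adjusted *P* = 0.486). *Gsk3a* was 6.83, 6.82 and 6.68 in *WT* and 7.17, 7.25 and 7.04 in *Mut* (mean ratio 0.38 ± 0.04, SD, n = 3; 1.30-fold, adjusted *P* = 0.000252), and 0.09 on the *WT* array. Median centring gave 0.22 (adjusted *P* = 0.367). Neither gene's groups overlapped on arrays 1 to 3. The 3 brighter *Apc* probes read -0.31, -0.34 and -0.41, and the dimmest 0.14. All 4 probes of the kinase gene *Csnk1d* were lower by adjusted *P* alone, from -0.28 at the brightest to -0.51, and of the 3 *Csnk1a1* probes 1 was, at -0.32. The array of 2 *WT* pools read -0.31 at the brightest *Csnk1d* probe and -0.30 at that *Csnk1a1* probe, as large as in *Mut*, and a dye term taken from that array turned the former to 0.03.

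*Ctnnb1*, the gene of β-catenin, was lower in *Mut* at both its probes, by different amounts. At the brighter probe the *WT* signals were 11.77, 11.61 and 11.77 and the *Mut* signals 11.46, 11.38 and 11.34. The groups did not overlap, and the mean ratio was -0.32 ± 0.09 (SD, n = 3; 1.25-fold, adjusted *P* = 0.00111). At the second *Ctnnb1* probe the *WT* signals were 11.44, 11.27 and 11.33 and the *Mut* signals 10.48, 10.58 and 10.88. There the ratios of -0.96, -0.69 and -0.45 were unequal, array 1 being the farthest from 0, and the mean of -0.70 ± 0.25 (SD, n = 3; 1.62-fold, adjusted *P* = 7.9e-05) passed the call. The array of 2 *WT* pools read -0.12 and -0.06 at these probes. Its channels stood at 11.49 and 11.37 for the brighter probe, at the level of *Mut*, and at 11.09 and 11.03 for the second, between the groups. Leaving out array 1 left the second probes of *Ctnnb1* and *Dvl1* without the call, at -0.57 each.

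**Figure D2:**
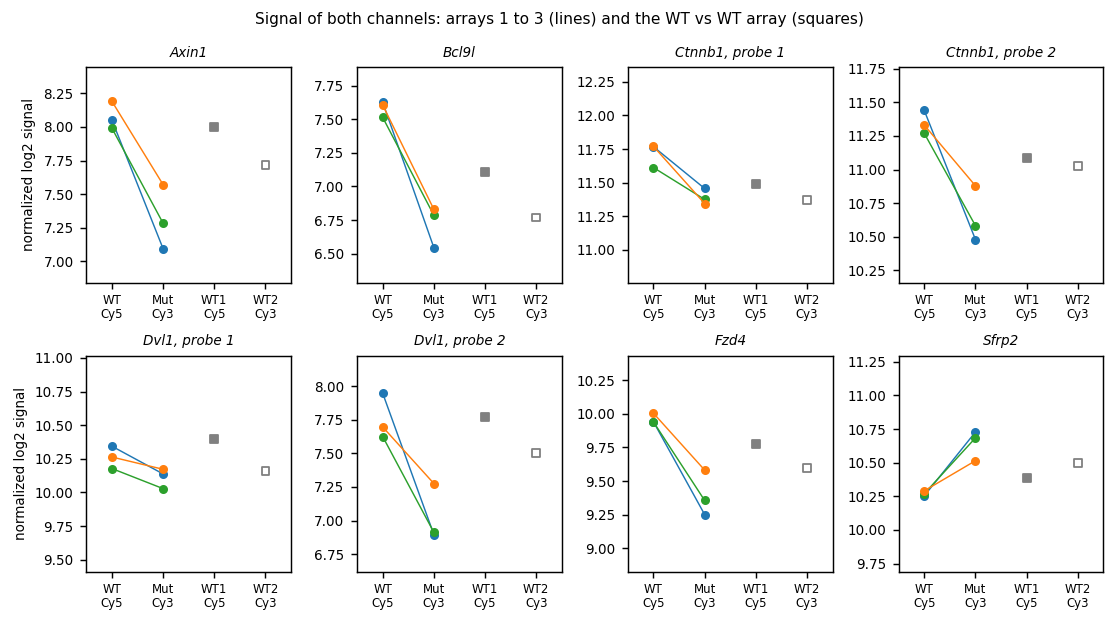
Normalized log2 signal (y axis) of 8 probes in each channel. Lines join the *WT* (Cy5) and *Mut* (Cy3) pool of arrays 1 (blue), 2 (green) and 3 (orange), and squares are *WT* pool 1 (filled, Cy5) and *WT* pool 2 (open, Cy3) of array 4, with each panel spanning the same range. The *Axin1* line runs from 7.99 to 8.19 down to 7.09 to 7.57, while for *Bcl9l* *WT* pool 2 of array 4, at 6.77, sits among the *Mut* pools.

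Of the nuclear partners of β-catenin, *Bcl9l* passed the call, with its *Mut* side mostly at background. *Bcl9l*, which encodes a co-activator that ties β-catenin to Pygopus proteins, had signals of 7.63, 7.51 and 7.60 in *WT* and 6.54, 6.79 and 6.83 in *Mut*. The *Mut* signal was well above background on 1 of 3 arrays and lay below *WT* on each. The mean ratio of -0.86 ± 0.19 (SD, n = 3; SE 0.07, 1.82-fold, adjusted *P* = 7.56e-06) thus rests on *Mut* signals of which 2 of 3 were not well above background. It ran from -0.52 with the dye term to -2.41 with the deposited ratios, neither of them called. *WT* pools 1 and 2 of array 4, however, read 7.11 and 6.77, and the *Mut* mean differed from the latter, in the same dye, by -0.05.

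*Lef1*, a TCF/LEF factor and a target of the pathway, passed no test, with signals of 7.52, 7.60 and 7.58 in *WT* and 7.44, 7.59 and 7.60 in *Mut* (mean ratio -0.02, 95% interval -0.13 to 0.09, adjusted *P* = 0.811). Both *WT* pools of array 4, at 7.82 and 7.73, lay above all of these, and the *Mut* mean differed from *WT* pool 2 in the same dye by -0.18. *Tcf7l2* likewise had ratios of -0.06, 0.06 and -0.11 (mean -0.04, 95% interval -0.16 to 0.08). After loess both intervals lay within 1.5-fold. Median centring gave -0.36 for *Lef1* and -0.59 for *Tcf7l2* (adjusted *P* = 0.26 and 0.213), where 1.5-fold lower is not excluded. *Tcf7* was 7.14, 7.12 and 6.96 in *WT* and 7.55, 7.42 and 7.19 in *Mut*, without overlap (mean ratio 0.31 ± 0.10, SD, n = 3; adjusted *P* = 0.00148), and 7.04 and 7.07 on array 4, at the *WT* level. Median centring gave 0.066 (adjusted *P* = 0.784) and the median over both probes 0.058. Its second, dimmer probe went the other way, at -0.20, with no *Mut* channel above background. *Tcf7l1*, mostly a repressor, read -0.12 at its brightest probe and 0.50 at the second (0.56, 0.56 and 0.38, adjusted *P* = 7.58e-05), where the array of 2 *WT* pools read 0.48 and median centring gave -0.026.

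Several of these genes were described differently by different probes. Of the 43 genes, 14 had more than 1 probe, and the probes of 6 of these lay on both sides of 0. Counted by probe, 4 of 63 were called lower and none higher, beside 1.46% of all probes called lower and 0.554% called higher. By adjusted *P* alone 24 of the 63 probes were lower and 7 higher (16.4% and 13.2% of all probes), and at an unadjusted *P* under 0.05, 29 and 11 (21.7% and 18.9%). The probes were not compared by the transcripts they detect.

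**Figure D3:**
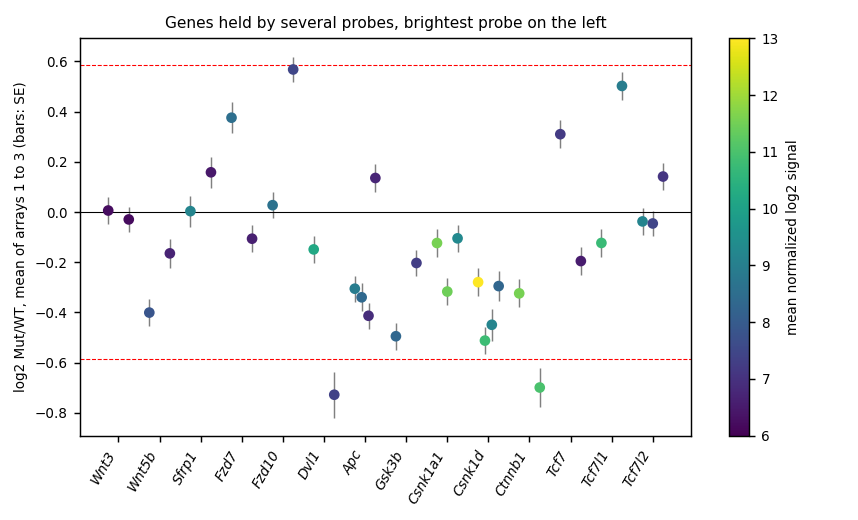
Mean log2 *Mut*/*WT* of arrays 1 to 3 (y axis, bars are the limma SE) for every probe of the 14 genes with more than 1 probe, brightest on the left, coloured by mean normalized log2 signal. Dashed lines mark 1.5-fold. The probes of *Fzd10* (0.03 and 0.57), *Dvl1* (-0.15 and -0.73) and *Tcf7l1* (-0.12 and 0.50) stand far apart.

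Because *Mut* was always in Cy3, the array of 2 *WT* pools was used in a fit with a dye term shared by all 4 arrays, which rests on that single array for the dye. With the dye term 0 of 43 genes were called by limma and 0 passed the adjusted *P*, with 7 lower and 2 higher at an unadjusted *P* under 0.05. The share of all named genes past either *P* alone with the term was not counted. Of all named genes 0.801% were called with the term, in either direction. The *Bcl9l* ratio became -0.52 (adjusted *P* = 0.106). The second *Ctnnb1* probe lost its call, at -0.64 (adjusted *P* = 0.0897), and the second *Dvl1* probe likewise. The second *Tcf7l1* probe went from 0.50 to 0.03. Set against *WT* pool 2 in the same dye, the *Mut* mean differed by over 1.5-fold for none of the 43 genes and for 0.342% of all named genes, and 16 of the 19 genes past the adjusted *P* kept their direction, as did 75.8% of all named genes past it. That comparison has a single *WT* pool and no test.

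**Figure D4:**
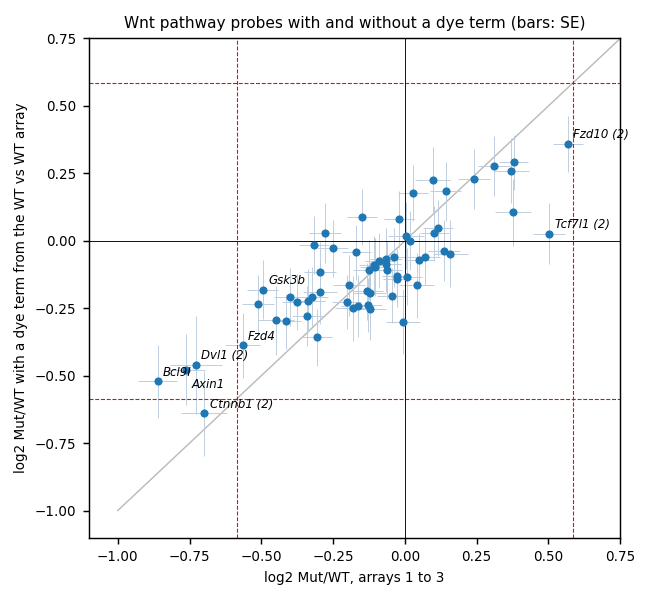
Log2 *Mut*/*WT* of the 63 Wnt pathway probes from arrays 1 to 3 (x axis) and from all 4 arrays with a dye term (y axis), with bars for the SE and dashed lines at 1.5-fold. "(2)" marks a second probe and the grey line is equality. *Axin1* and *Bcl9l* move from -0.76 and -0.86 to -0.48 and -0.52, and the second *Ctnnb1* probe stays near equality at -0.64, where it was not called.

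A further 76 genes of the pathway, listed beside the members, were counted to place them, and 70 were matched. None was called at its brightest probe by limma, and *Cul1* (-0.61), *Cxxc5* (-0.71), *Ppp2ca* (-0.67) and *Ruvbl1* (-0.68) were called lower at a second probe. By adjusted *P* alone 17 were lower and 16 higher (18.6% and 14.4% of all named genes), and at an unadjusted *P* under 0.05, 21 and 17 (23.9% and 20.1%). Their median was -0.01. The 3 with the lowest adjusted *P* were the LRP inhibitor *Dkk1* at 0.43, the membrane protein gene *Amer1* at 0.38, with 0.32 on the *WT* array, and *Tnks*, whose product marks AXIN for degradation, at -0.40. Of 10 other receptors and R-spondins 4 were lower and none higher by adjusted *P* alone, and of 16 other destruction complex and relay genes 5 were lower and 7 higher, beside the same 18.6% and 14.4%.

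On arrays 1 to 3, target genes of β-catenin/TCF were more often higher than lower in *Mut*. Of 30 listed, 28 were matched, 6 of them also members (*Axin2*, *Lef1*, *Tcf7*, *Nkd1*, *Lgr5* and *Rnf43*). *Ccnd1*, which encodes the cell cycle regulator cyclin D1, and *Lhx1*, a transcription factor gene of the early nephron epithelium, rose in *Mut*. By adjusted *P* alone 11 of the 28 were higher and none lower (14.4% and 18.6% of all named genes), and at an unadjusted *P* under 0.05, 13 and 0 (20.1% and 23.9%). The ratio was above 0 on all 3 arrays for 18 of the 28 and for 30.4% of all named genes, and the median was 0.11. Without the members, 10 of 22 were higher by adjusted *P* alone. With the dye term 3 of the 28 were called, beside 0.801% of all named genes in either direction. By adjusted *P* alone 5 were higher with it, a count without its share of all named genes, and the median was 0.05. Set against *WT* pool 2 in the same dye, 14 of the 28 were below 0 in *Mut*, with a median of 0.0029. Median centring left 14 of the 28 above 0, a median of 0.0049 and none past the adjusted *P*.

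*Ccnd1* was 9.61, 9.62 and 9.58 in *WT* and 10.28, 10.26 and 10.31 in *Mut* (mean ratio 0.68 ± 0.04, SD, n = 3; 1.60-fold). *Lhx1* was 8.24, 8.20 and 8.16 in *WT* and 8.84, 8.87 and 8.95 in *Mut* (mean ratio 0.69 ± 0.10, SD, n = 3; 1.61-fold). Under median centring they were 0.093 (adjusted *P* = 0.787) and 0.19 (adjusted *P* = 0.539). *Sp5*, a TCF target that encodes a zinc finger factor, had ratios of 0.62, 0.49 and 0.56, just under the fold of the call. All *Mut* pools were above all *WT* pools of arrays 1 to 3 for these 3 genes, yet the *WT* pools of array 4 were not at the *WT* level. *Ccnd1* read 10.26 in *WT* pool 1 and 10.28 in *WT* pool 2 on array 4, and *Lhx1* 9.00 and 9.02. *WT* pool 1 in Cy5 was thus 0.64 log2 units higher on array 4 than on array 1 for *Ccnd1* and 0.76 for *Lhx1*. Further differences over 1.5-fold were 0.75 for *Sp5* and 0.64 for the Notch ligand gene *Jag1*. These are the 4 target genes that differed by over 1.5-fold between the arrays for that pool.

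Read in Cy3, the *Mut* mean differed from *WT* pool 2 of array 4 by 0.00 for *Ccnd1*, by -0.13 for *Lhx1* and by 0.05 for *Sp5*. It differed by over 1.5-fold for none of the 28 and for 0.342% of all named genes. The ratio of array 4 compares its own 2 channels, so the dye term does not take up this difference, and with it *Ccnd1*, *Lhx1* and *Sp5* were called at 0.65, 0.67 and 0.80. The mean level of the 10 erythroid markers given above was likewise high in *Mut* and in both *WT* pools of array 4. Of these markers 4 were higher by adjusted *P* alone (14.4% of all named genes), and 2 lay below 0 on all 3 arrays. Only 3 were well above background in both channels of arrays 1 to 3, and *WT* pool 1 differed by over 1.5-fold between arrays 1 and 4 for 2. *Hba-a1*, an adult α-globin gene, was at 10.34 to 10.48 in *WT*, 11.54 to 11.63 in *Mut* and 11.78 and 11.56 on array 4. The part of these markers in the target gene values was not tested. Of the stromal markers, *Col1a1*, *Col3a1* and *Pdgfrb* rose, at 0.89, 0.78 and 0.60, with 0.43, 0.27 and 0.18 on the *WT* array, and *Acta2* fell, at -1.24 and -0.51.

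**Figure D5:**
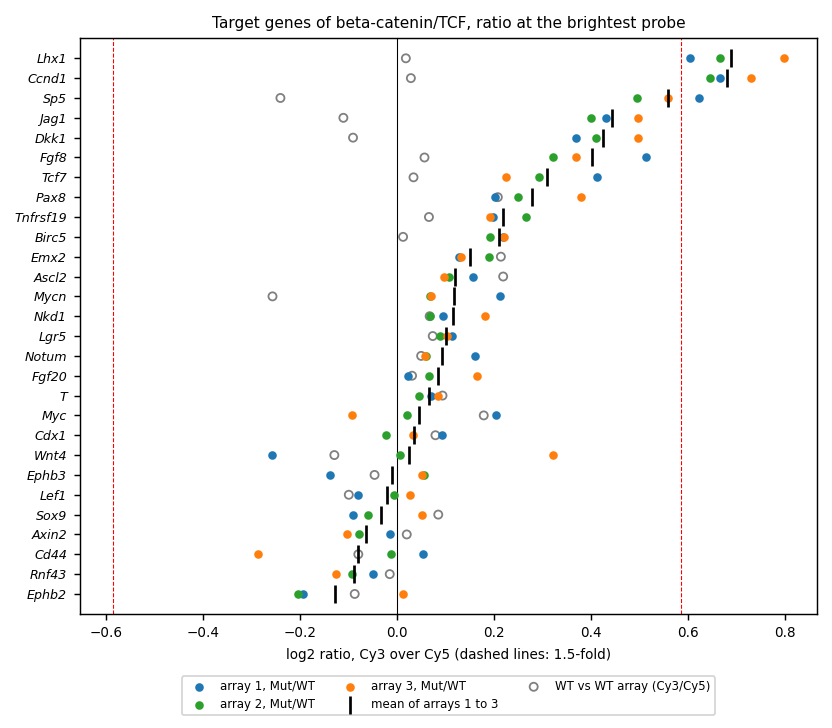
Log2 ratio of Cy3 over Cy5 (x axis) at the brightest probe of 28 target genes of β-catenin/TCF, ordered by mean. Filled points are arrays 1 to 3 (*Mut*/*WT*), the bar is their mean, open circles are the array of 2 *WT* pools and dashed lines mark 1.5-fold. *Lhx1* and *Ccnd1* lie beyond 1.5-fold at 0.69 and 0.68 with open circles at 0.02 and 0.03, which compare 2 *WT* pools that both stood at the *Mut* level.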

How the data were processed

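RNA of FACS-isolated Six2 EGFP+ cells was hybridized to 4 dual-colour Agilent arrays, grouped by the submitters' labels (3 *Mut* against *WT*, 1 *WT* against *WT*). The authors deposited Agilent Feature Extraction 10.7.3.1 output: intensity values of each spot and its background in both channels, not normalized, the program's log10 ratio of red over green, and flags for background and outliers, which are other columns of the deposited files. The authors' methods name GeneSpring GX for their own normalization, whose output was not used here. The deposited table of the series repeats these log10 ratios (180072 of 180072 equal within 1e-06, as log2).

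Median intensities were background-corrected (normexp, offset 50), normalized within arrays by loess, and, for levels of single channels, between arrays by Aquantile. The design named mean signals, and median signals were used instead. Control and outlier spots were left out, spots of a probe averaged, and ratios turned to Cy3 over Cy5. Probes were named through their accession in RefSeq GRCm38.p6 gene tables, which named 55.7% of 41174 probes, and no coordinates were used. Genes with several probes were given by the brightest.

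Ratios were tested against 0 with limma 3.58.1 in R 4.3.3 (adjusted *P* under 0.05 and over 1.5-fold, as in the study), and intervals are limma's at 95%. The fit was tested on simulated data. Each array pairs a *Mut* and a *WT* pool, whose deviations from their group means correlated at 0.39, 0.43 and 0.32. *P* values measure the spread between 3 pairs of pools, and precision is limited by that number. The members and lists were chosen with earlier results of these data known. Values on each array were given for members called at any probe, for the 2 well-measured members of lowest adjusted *P* at each level and for *Ctnnb1*, *Lef1*, *Axin1*, *Axin2*, *Wnt9b*, *Dvl1* and *Tcf7l2*. Values of *Gsk3a*, *Fzd10*, *Sp5*, *Jag1*, the second probes of other pathway genes and the marker genes were added after they were seen. No outlier test was run over 3 arrays. Alternatives were the deposited ratios, a normexp offset of 0, median centring in place of loess, a dye term, leaving out dim probes, no pairing, leaving out each array, the methods' test, the median over probes and no fold minimum.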

Additional observations from a re-analysis of the deposited data

How the results depend on the processing

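The 2 genes called lower became 14 with no fold minimum, and 0 with a normexp offset of 0, median centring, a dye term or the methods' test, each adjusted by Benjamini-Hochberg. The offset of 0 and median centring called 0 of all probes, where 3523 and 6023 passed 1.5-fold at an unadjusted *P* under 0.05, and 5 and 16 of the 43 genes did. The deposited log ratios called 4 other genes lower (*Wnt7b*, *Kremen1*, *Fzd4* and *Fzd8*) and not *Axin1* (-1.28, adjusted *P* = 0.0557) or *Bcl9l* (-2.41, adjusted *P* = 0.0889). Of the 16355 named genes, 421 were called lower and 424 higher with these ratios. *Wnt7b*, *Kremen1* and *Fzd8* had no *Mut* channel well above background on arrays 1 to 3. They called the second *Fzd10* probe higher (1.08), and not the second probes of *Ctnnb1* or *Dvl1* (adjusted *P* = 0.0838 and 0.0856). With no fold minimum 5 genes were called higher. The 4 probes called became 0 under the same 4 alternatives, 31 with no fold minimum and 2 to 5 when an array was left out. Of the other pathway genes (0 called), 5 were called with the deposited ratios, 33 with no fold minimum and 0 to 1 when an array was left out. The 2 target genes called became 5 with the deposited ratios, 11 with no fold minimum and 0 with an offset of 0, median centring or the methods' test. *Axin1* and *Bcl9l* remained called whichever array was left out. *Fzd4* was called without array 3, at -0.64, and with the deposited ratios, at -0.65. Without the replicate block, the pairing of pools on an array, the counts were 2 genes lower, 0 higher, 4 probes, 0 other pathway genes and 2 target genes, and no call changed.

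Under median centring, which moved the members' median to -0.32, the ratio changed sign for 13 of the 43 genes, of which those given by array were *Wls* (-0.45), *Wnt9b* (0.091), *Sfrp2* (-0.23), *Fzd7* (-0.12), *Lgr5* (-0.040) and *Axin2* (0.051). So did the second *Tcf7l1* probe (-0.026). With the dye term 8 genes changed sign, among them *Wls* (-0.16), *Dvl1* (0.088) and *Lef1* (0.079). With 1 array left out *Wls* ranged from -0.024 to 0.112 and *Lef1* from -0.043 to 0.011, each turning without array 1. *Tcf7l2* was 0.0051 with the deposited ratios. The cause was not tested.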
